A study of Homo sapiens with 8 samples.

Results

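Notch receptors, their Jagged ligands, the DNA-binding effector RBPJ and target genes of the pathway were followed in HepG2 cells, a line derived from a human liver tumor, after transfection with a plasmid coding for flag-tagged GRHL2 (pGRHL2) or with pcDNA3. The genes were picked by symbol from a list of 10, namely JAG1, JAG2, NOTCH1, NOTCH2, NOTCH3, RBPJ, HES1, HES4, HEY1 and NRARP, and 10 of 10 were in the deposited table of 17561 genes. RNA was taken 48 h after transfection, and mRNA libraries were sequenced for 4 replicates of each plasmid. All cells, controls included, were grown on gelatin in a medium with serum, insulin and dexamethasone. The pGRHL2 plasmid drove its insert from an EEF1A1 promoter and also encoded a green fluorescent protein, while the control was a different vector rather than the same plasmid without GRHL2, and the experiment rests on a single cell line. The comparison asked which of these transcripts differed between cells with and without ectopic GRHL2, an epithelial transcription factor that the study connects with the conversion of hepatocytes into cholangiocytes.

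In the Notch pathway, a ligand on one cell (Jagged or Delta-like) binds a Notch receptor on its neighbor, which is then cut by ADAM proteases and gamma-secretase. The freed intracellular domain enters the nucleus and joins RBPJ and a Mastermind coactivator at target genes, among them the HES and HEY genes, whose products are transcriptional repressors. In the developing liver, JAG1 from the portal mesenchyme acting on NOTCH2 in hepatoblasts directs cells to the biliary fate and shapes the bile ducts, and mutations in JAG1 or NOTCH2 cause Alagille syndrome.

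Promoter sequences (RefSeq, GRCh38.p14, from 250 bases before to 50 bases after the transcription start) were available for 9 of the 10 genes and were searched on both strands for the RBPJ letters GTGNGAA, the Grainyhead letters AACNNGTT and the N box CACNAG, which HES proteins can bind. The RBPJ letters were found in 2 of these 9 windows, those of HES1 and HES4, and in 13.8% of 35116 windows of the same length. In both genes they occurred as a facing pair separated by 16 bases, from -85 to -56 in HES1 and from -77 to -48 in HES4, where positions are counted from the start. This arrangement, which does not occur in the other 7 windows, was found in 3 of the 35116 windows (0.00854%), the third being that of ITIH4, named after the count was seen. The Grainyhead letters were found only in the JAG2 window among the 9, from position 13 to 20, compared with 3.52% of all windows. A match to the pattern AACNNGTT, where N is any base, is a match on both strands and was counted once. The HES1 window also held 4 matches to the N box, which was present in 6 of the 9 windows and in 38.0% of all windows. An N box from -58 to -53 in HES1 overlapped the second RBPJ match. Only the first listed window of each member was searched, so any further start sites of these genes are not covered by the member counts. These matches describe letters and were not tested for binding. The windows of HES1, HES4 and JAG2 are shown because they hold the paired RBPJ letters or the Grainyhead letters, which are in capitals. They lie at chr3:194135898-194136197 on the plus strand, chr1:1000048-1000347 on the minus strand and chr14:105168727-105169026 on the minus strand.
HES1: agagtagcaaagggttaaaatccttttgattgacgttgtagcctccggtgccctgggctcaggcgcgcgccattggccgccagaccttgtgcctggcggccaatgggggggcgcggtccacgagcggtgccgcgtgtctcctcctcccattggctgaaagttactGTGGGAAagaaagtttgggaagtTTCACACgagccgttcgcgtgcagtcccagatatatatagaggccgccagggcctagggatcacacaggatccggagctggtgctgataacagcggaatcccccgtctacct
HES4: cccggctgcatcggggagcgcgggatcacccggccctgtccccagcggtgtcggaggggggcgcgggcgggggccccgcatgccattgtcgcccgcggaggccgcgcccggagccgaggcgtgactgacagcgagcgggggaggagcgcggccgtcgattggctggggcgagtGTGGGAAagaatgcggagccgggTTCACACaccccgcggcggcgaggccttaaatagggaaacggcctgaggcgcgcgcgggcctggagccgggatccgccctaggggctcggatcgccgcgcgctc
JAG2: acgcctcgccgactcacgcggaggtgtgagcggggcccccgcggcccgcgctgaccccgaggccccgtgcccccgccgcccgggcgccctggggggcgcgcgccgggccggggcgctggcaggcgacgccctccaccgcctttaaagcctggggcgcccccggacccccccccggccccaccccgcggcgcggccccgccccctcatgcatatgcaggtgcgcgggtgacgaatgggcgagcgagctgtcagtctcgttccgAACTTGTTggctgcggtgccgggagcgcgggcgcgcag

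The deposited values were on a log2 scale and adjusted for transcript length. The depth behind each value was unknown, since no read counts were used here. In every gene, averaging a pGRHL2 library with the pcDNA3 library of its number returned the same value for each of the 4 numbers, so the libraries were handled as 4 pairs, and within a pair a high pGRHL2 value implies a low pcDNA3 value of the same gene by construction. GRHL2 itself lay between 16.22 and 16.87 in pGRHL2 and between 6.61 and 7.25 in pcDNA3, as the labels required. All 8 genes listed as hepatocyte markers were present (means of 9.83 to 17.11). The highest of them was AFP, which the paper treats as a progenitor gene. Their summed level was 18.15 to 18.36 in pGRHL2 and 18.06 to 18.26 in pcDNA3. The endothelial markers CDH5, KDR, TEK and ERG, the mesenchymal markers COL1A2, COL3A1, DCN and LUM and the leukocyte markers PTPRC, CD68 and CD3E were not in the table. The summed levels of the listed markers ranged over 5.52 to 5.61 in pGRHL2 and 5.49 to 5.59 in pcDNA3 for 2 of 6 endothelial genes, 6.49 to 6.62 and 6.38 to 6.51 for 2 of 6 mesenchymal genes, and 13.23 to 13.43 and 13.13 to 13.33 for 3 of 6 leukocyte genes. Their part in the results was not tested.

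Upon GRHL2 expression, JAG2 rose by 0.54 (log2), about 1.46-fold, and was the only member called at an adjusted p in limma under 0.05. HES1 and NRARP had the most negative log2 fold changes (log2 FC, pGRHL2/pcDNA3), -0.35 and -0.30, but missed this threshold. In all, 1 of 10 members was called higher and 0 lower, compared with 2.19% of the 17561 genes called in either direction (1.69% higher and 0.501% lower). An unadjusted limma p under 0.05 was found for 5 members, 3 higher and 2 lower, and for 2802 of all genes. The counts of called members were 3 higher and 3 lower in limma without the replicate block, in which 18.5% of all genes were called. Groups did not overlap in 4 of 10 members, against 24.0% of all genes. With identical pair means, groups are apart exactly when the 4 pair differences share a sign. Lack of overlap therefore adds nothing to the signs, here and for single genes below. The median log2 FC of the members was -0.083, compared with 0.002 over all genes.

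The length-adjusted levels of the 10 genes spanned a wide range. Over the table, the lowest values (first percentile, 7 bins of length) changed by -0.96 per doubling of mean transcript length, so that a difference between genes was read as a log2 ratio per length. The methods do not state on which scale the division by length was made, so folds between genes rest on this reading. The length was a mean over annotated transcripts, and those expressed here may have other lengths. JAG1 was the highest, with a mean of 11.72 over the 8 libraries (97.4th percentile of all genes), followed by RBPJ at 9.82 (85.8th percentile). NOTCH2 at 8.76 and HES1 at 8.68 came next. They were the only neighbors in this order whose values overlapped, NOTCH2 being above HES1 in 5 of 8 libraries. HES4 (8.25), HEY1 (7.62), NRARP (6.75), NOTCH1 (5.25), JAG2 (3.54) and NOTCH3 (1.80) followed, and each neighboring pair kept its order in 8 of 8 libraries. These cells thus held high levels of JAG1 and intermediate levels of NOTCH2, while JAG2 and NOTCH3 were at the 28.8th and 15.9th percentiles.

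**Figure D1:**
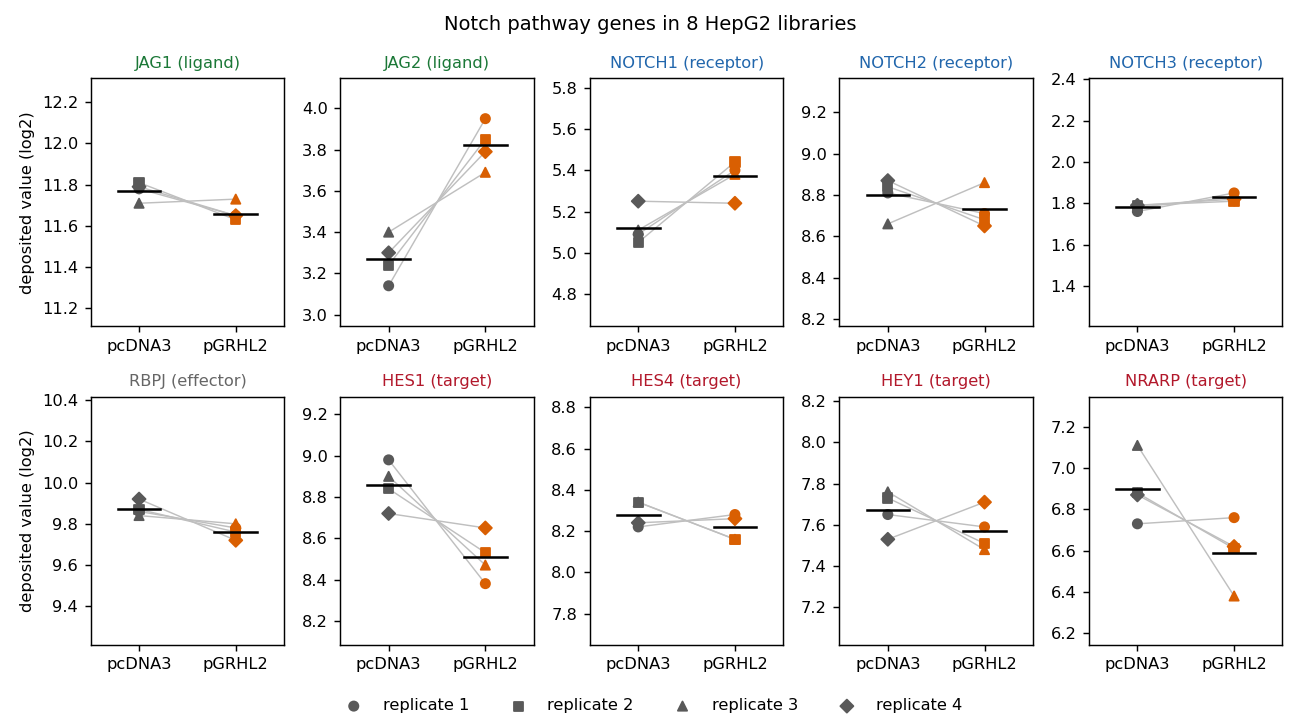
Deposited log2 values of the 10 Notch pathway genes in each library, with pcDNA3 in grey and pGRHL2 in orange, marker shapes for the replicate numbers, thin lines joining same-numbered libraries and black bars for group means. Each panel spans 1.2 log2 units around its own mean. JAG2 is higher in all pGRHL2 libraries and HES1 is lower in all of them. The joining lines of a panel meet at 1 midpoint by construction.

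Among the ligands, JAG2 encodes the second Jagged protein and lies on chromosome 14 from 105140982 to 105168824 (minus strand, hg38). Its values were 3.95, 3.85, 3.69 and 3.79 in pGRHL2 libraries 1 to 4, and 3.14, 3.24, 3.40 and 3.30 in pcDNA3 libraries 1 to 4. All pGRHL2 values were thus above all pcDNA3 values, and the pair differences were 0.81, 0.60, 0.28 and 0.49. On average JAG2 rose by 0.54 ± 0.22 (SD over 4 pairs; adjusted p in limma of 0.00796), with a 95% limma interval of 0.39 to 0.70. Flipping the signs of the 4 pair differences in an exact two-sided test gave p = 0.125, which is the floor for 4 pairs. Leaving out any replicate kept the call, with log2 FC of 0.46 to 0.63. By size, this increase ranked 15 of 17561 genes, and 4 of the 2421 genes with a mean within 1 of that of JAG2. In that range of levels 3.88% of genes were called higher, compared with 1.69% over the whole table. Some 7.33% of the exon bases of JAG2 are shared with ENSG00000257622, a gene without a row in the table, and counting did not use strand. The shares were 3.29% for JAG1, 2.76% for NRARP and 0 for the other members. In bulk libraries, more cells with a transcript and more of it per cell cannot be told apart.

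JAG1 encodes the ligand of biliary development and lies on chromosome 20 from 10637684 to 10673999 (minus strand). Its values were 11.65, 11.63, 11.73 and 11.65 in pGRHL2 libraries 1 to 4 and 11.78, 11.81, 11.71 and 11.79 in pcDNA3. The groups overlapped because pair 3 had a difference of 0.02 where the other pairs had -0.13, -0.18 and -0.14. The mean difference was -0.11 ± 0.09 (SD over 4 pairs; adjusted p in limma of 0.365), with a 95% interval of -0.22 to 0.01. On the length-adjusted scale, JAG1 exceeded JAG2 by 8.17 log2 units on average, so that JAG2 stayed a minor transcript of the pair after its increase.

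The receptors differed in level, NOTCH2 being 11.4-fold above NOTCH1, and NOTCH1 10.9-fold above NOTCH3 (length-adjusted). NOTCH1, on chromosome 9 from 136494433 to 136546048 (minus strand), had values of 5.40, 5.44, 5.38 and 5.24 in pGRHL2 libraries 1 to 4 and of 5.09, 5.05, 5.11 and 5.25 in pcDNA3. It was higher in pairs 1 to 3, by 0.31, 0.39 and 0.27, whereas pair 4 differed by -0.0047, so that the groups overlapped. Its log2 FC of 0.24 ± 0.17 (SD over 4 pairs) had a 95% interval of 0.10 to 0.38 and missed the threshold (adjusted p in limma of 0.0917). Without replicate 4 the log2 FC was 0.32 and the adjusted p in limma 0.0331, and with library weights (limma's arrayWeights) they were 0.27 and 0.0362. Without replicate 1, 2 or 3 the log2 FC was 0.19 to 0.23 and the adjusted p in limma 0.23 to 0.338, and after spline correction for GC content, length and level they were 0.19 and 0.105.

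NOTCH2 encodes the receptor that acts with JAG1 in bile duct formation, and lies on chromosome 1 from 119911553 to 120100779 (minus strand). Its values were 8.71, 8.68, 8.86 and 8.65 in pGRHL2 libraries 1 to 4 and 8.81, 8.84, 8.66 and 8.87 in pcDNA3, with ranges that coincided almost entirely. The pair differences were -0.10, -0.15, 0.21 and -0.23, and averaged -0.07 ± 0.19 (SD over 4 pairs; 95% interval of -0.25 to 0.11, adjusted p in limma of 0.742). The near-identical partial copies NOTCH2NLA, NOTCH2NLB and NOTCH2NLC had rows of their own with means of 2.15, 0.69 and 1.91. According to the methods, reads below a minimum alignment quality were not counted. How many reads shared by NOTCH2 and its copies this left out, and where the others were counted, is uncertain. The log2 FC of the copies were 0.06, 0.10 and -0.04, with adjusted p in limma of 0.406, 0.0834 and 0.413.

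NOTCH3, on chromosome 19 from 15159038 to 15200995 (minus strand), lay between 1.81 and 1.85 in pGRHL2 and between 1.76 and 1.79 in pcDNA3. The groups did not overlap, but the log2 FC was only 0.05 ± 0.03 (SD over 4 pairs; adjusted p in limma of 0.261). The authors' rlog transformation shrinks differences more at low read counts, so that this one may be understated. After spline correction for GC content, length and level of all genes, its log2 FC was 0.01.

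RBPJ encodes the protein that brings the cleaved receptor to DNA and lies on chromosome 4 from 26163455 to 26435131 (plus strand). Its values were 9.78, 9.76, 9.80 and 9.72 in pGRHL2 libraries 1 to 4 and 9.86, 9.87, 9.84 and 9.92 in pcDNA3. All 4 pairs were lower in pGRHL2, by small amounts, so that the groups did not overlap. RBPJ thus had a log2 FC of -0.11 ± 0.07 (SD over 4 pairs), with a 95% interval of -0.24 to 0.02 and an adjusted p in limma of 0.399.

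Among the targets, HES1 encodes a repressor that also acts on its own promoter, and lies on chromosome 3 from 194136148 to 194138732 (plus strand), downstream of the paired RBPJ letters shown above. Its values were 8.38, 8.53, 8.47 and 8.65 in pGRHL2 libraries 1 to 4 and 8.98, 8.84, 8.90 and 8.72 in pcDNA3. Each pGRHL2 library was below each pcDNA3 library, with pair differences of -0.60, -0.31, -0.43 and -0.08. They averaged -0.35 ± 0.22 (SD over 4 pairs), corresponding to a 1.28-fold lower level, with a 95% interval of -0.54 to -0.16. The adjusted p in limma of 0.0722 missed the threshold. Without replicate 4, whose pair had the smallest difference, HES1 was called lower (log2 FC of -0.45, adjusted p in limma of 0.046). It was also called with library weights (log2 FC of -0.41, adjusted p in limma of 0.0311), whereas without replicate 1, 2 or 3 its log2 FC was -0.37 to -0.27 and its adjusted p in limma 0.202 to 0.309. By size, this decrease ranked 52 of 17561 genes, and 25 of the 4439 genes of like level.

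HES4, on chromosome 1 from 998962 to 1000172 (minus strand), encodes another HES repressor and carries the same paired RBPJ letters as HES1. Its values were 8.28, 8.16, 8.16 and 8.26 in pGRHL2 libraries 1 to 4 and 8.22, 8.34, 8.34 and 8.24 in pcDNA3. It was higher in pairs 1 and 4 and lower in pairs 2 and 3. HES4 had a log2 FC of -0.07 ± 0.12 (SD over 4 pairs; 95% interval of -0.22 to 0.08, adjusted p in limma of 0.671).

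HEY1, a repressor of the related HEY family, had values of 7.59, 7.51, 7.48 and 7.71 in pGRHL2 libraries 1 to 4 and of 7.65, 7.73, 7.76 and 7.53 in pcDNA3. Pair 4 went against the other pairs, with a difference of 0.17 compared with -0.05, -0.22 and -0.29. On average HEY1 differed by -0.10 ± 0.20 (SD over 4 pairs; 95% interval of -0.28 to 0.08, adjusted p in limma of 0.618).

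NRARP encodes an ankyrin repeat protein that is induced by Notch and dampens its signal, and lies on chromosome 9 from 137299631 to 137302271 (minus strand). Its values were 6.76, 6.61, 6.38 and 6.62 in pGRHL2 libraries 1 to 4 and 6.73, 6.88, 7.11 and 6.87 in pcDNA3. Only pair 1 was not lower, its difference being 0.03 against -0.28, -0.73 and -0.24, and the groups overlapped. NRARP had a log2 FC of -0.30 ± 0.32 (SD over 4 pairs), with a 95% interval of -0.54 to -0.07 and an adjusted p in limma of 0.193. The estimate depended on pair 3, since without replicate 3 it was -0.16 (adjusted p in limma of 0.372), and on pair 1, without which it was -0.42 (adjusted p in limma of 0.164).

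**Figure D2:**
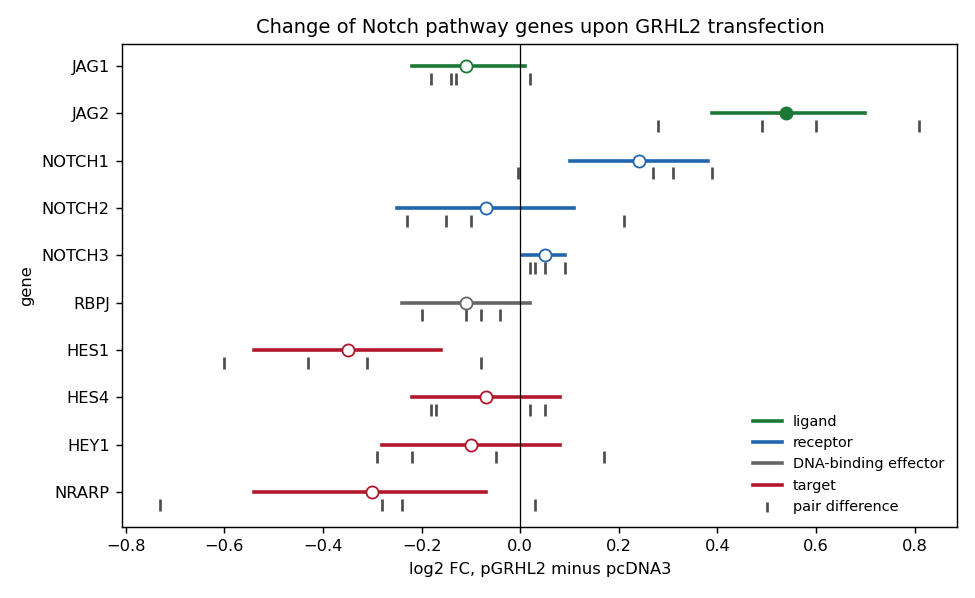
Log2 FC (pGRHL2 minus pcDNA3, horizontal axis) of each Notch pathway gene, colored by role, as a circle with its 95% limma interval as a bar. Filled circles have an adjusted p under 0.05, and the ticks below each bar are the 4 pair differences. Only the circle of JAG2, at 0.54, is filled, while the intervals of HES1 (-0.54 to -0.16) and NRARP (-0.54 to -0.07) lie below 0 with open circles.

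Members of the same role were then set against each other within each library, for 3 contrasts chosen after the values were seen. JAG2 relative to JAG1 was higher in pGRHL2 in 4 of 4 pairs, by 0.65 ± 0.29 (SD over 4 pairs, log2). NOTCH1 relative to NOTCH2 was also higher in 4 of 4 pairs, by 0.31 ± 0.21, and HES1 relative to HES4 was lower in 4 of 4 pairs, with a change of -0.28 ± 0.26. Each contrast had an exact p of 0.125 (sign flips, two-sided), the floor for 4 pairs, and none could reach 0.05 before or after adjustment over the 3 contrasts. Across the 4 pairs, from 3 to 5 members were higher and from 5 to 7 lower. The pair with the largest GRHL2 difference, pair 3 (10.26), had the smallest JAG2 difference and the largest NRARP and HEY1 differences. Pair 1, with the smallest GRHL2 difference (8.97), had the largest JAG2, HES1 and NOTCH3 differences. Those of NOTCH1 (0.39), JAG1 (-0.18) and HES4 (-0.18) were largest in pair 2, and those of NOTCH2 (-0.23) and RBPJ (-0.20) in pair 4. A relation of the members to the GRHL2 difference was not tested.

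**Figure D3:**
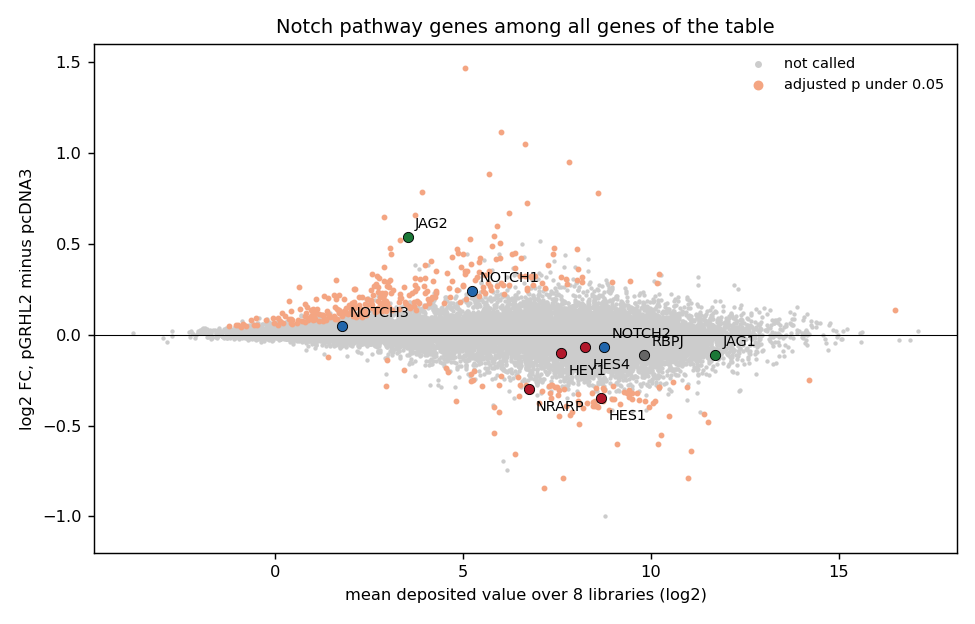
Log2 FC (vertical axis) against the mean deposited log2 value over the 8 libraries (horizontal axis) for all genes but GRHL2, with called genes in orange and the Notch pathway genes labelled and colored by role. Most called increases lie at low levels, where JAG2 is found, and HES1 and NRARP lie at the lower edge of the genes of their level without being called.

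The rest of the pathway was described from lists by role, which named 55 genes, of which 51 were in the table and NOTCH4, DLL1, DTX1 and HES3 were not. Over these 51 genes, 1 was called higher and 0 lower by limma, near the 2.19% called over the whole table. An unadjusted p under 0.05 was found for 8 (15.7%), also near the share over all genes (2802 of 17561), and the median log2 FC was 0.014, compared with 0.002. HES2, a further HES repressor, was the gene called. Its values were 4.96, 4.96, 5.05 and 4.96 in pGRHL2 libraries 1 to 4 and 4.76, 4.76, 4.67 and 4.76 in pcDNA3, which did not overlap. The log2 FC was 0.24 ± 0.09 (SD over 4 pairs; adjusted p in limma of 0.0264). The call was lost when any replicate was left out (log2 FC of 0.20 to 0.26, adjusted p in limma from 0.0729 to 0.106) and after spline correction for GC content, length and level (0.21 and 0.0589). The other 5 HES and HEY genes of this list had log2 FC between -0.01 and 0.07. Their mean values were 9.0 for HES6, 2.19 for HES7, 1.82 for HEY2, -0.02 for HES5 and -0.1 for HEYL. All but HES6 were thus at low levels, where rlog shrinks differences more, and a lack of response cannot be read from them. In this list of 6, HES2 and HES7 had an unadjusted limma p under 0.05. HES7 was higher in 4 of 4 pairs, with a log2 FC of 0.07 (unadjusted p in limma of 0.00771, adjusted 0.124).

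In the other receptors and ligands, 0 of 4 genes were called by limma and 0 had an unadjusted p under 0.05. The largest difference was that of DLL4, a Delta-like ligand, with a log2 FC of 0.06 ± 0.14 (SD over 4 pairs). Of the 6 genes that glycosylate or process Notch receptors and the 8 that cleave them, 0 were called and 0 had an unadjusted p under 0.05. FURIN, which makes the first cut, had a log2 FC of -0.11 ± 0.09 (adjusted p in limma of 0.408). The gamma-secretase subunit NCSTN had a log2 FC of 0.15 ± 0.18 (adjusted p in limma of 0.385).

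Among 11 genes of ligand and receptor trafficking and turnover, limma called 0 genes, and 2 had an unadjusted p under 0.05. DTX3, of the Deltex ubiquitin ligase family, had values of 6.62 to 6.76 in pGRHL2 and of 6.89 to 7.02 in pcDNA3, and a log2 FC of -0.24 ± 0.12 (SD over 4 pairs; adjusted p in limma of 0.082). NUMBL, a relative of the Notch inhibitor NUMB, had a log2 FC of 0.15 ± 0.03 (adjusted p in limma of 0.0834) and passed the threshold with library weights.

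Of the 6 nuclear coactivators, 0 were called by limma, while 4 had an unadjusted p under 0.05, compared with 2802 of all 17561 genes. The log2 FC was negative in 5 of the 6 and in 8519 of all genes. EP300, a histone acetyltransferase recruited to the Notch complex, had values of 10.20, 10.21, 10.39 and 10.08 in pGRHL2 libraries 1 to 4 and of 10.47, 10.46, 10.28 and 10.59 in pcDNA3. Pair 3 differed by 0.11 and the other pairs by -0.25 to -0.51, which gave a log2 FC of -0.23 ± 0.25 (SD over 4 pairs; adjusted p in limma of 0.256). The related CREBBP and the Mastermind gene MAML1 had log2 FC of -0.19 and -0.17, whereas that of MAML3 was 0.07, with adjusted p in limma of 0.301, 0.235 and 0.0823. MAML3 had a low mean value of 0.97 (9.9th percentile of all genes), against 10.48 for CREBBP and 9.27 for MAML1. Among the 10 corepressor genes, limma called 0, and 0 had an unadjusted p under 0.05. SPEN, a partner of RBPJ in repression, had the largest difference, with a log2 FC of -0.17 ± 0.27.

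**Figure D4:**
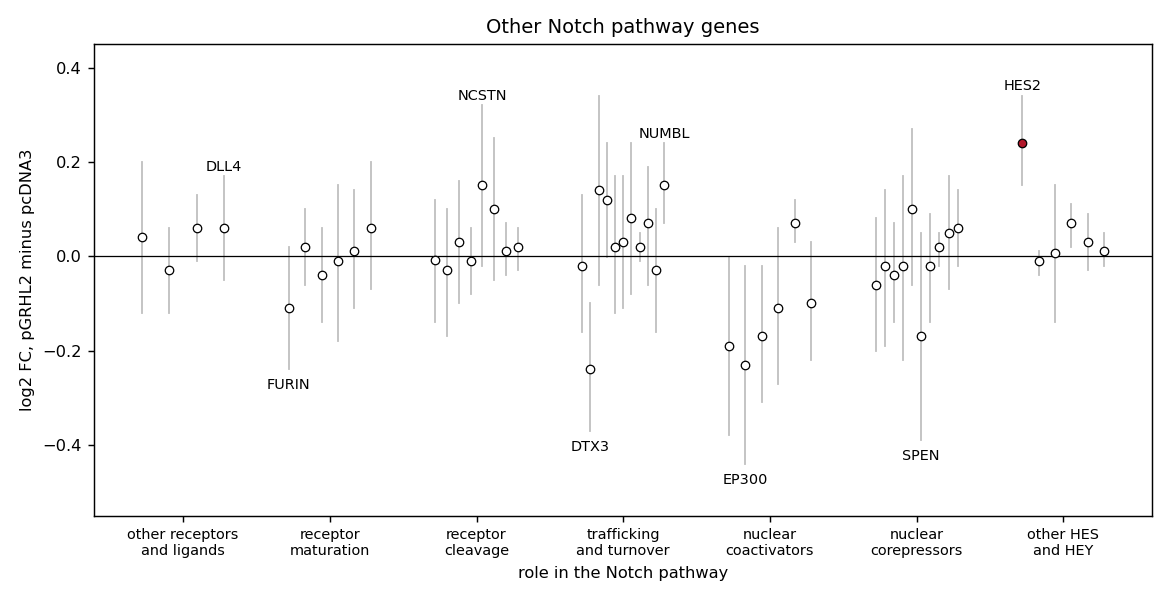
Log2 FC (pGRHL2 minus pcDNA3, vertical axis) of the 51 other Notch pathway genes, grouped by role along the horizontal axis, with 95% limma intervals as grey bars and a filled red circle for an adjusted p under 0.05. HES2 at 0.24 is the only filled circle, and the 51 values lie between -0.24 and 0.24.

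Genes of the biliary lineage, whose fate the pathway directs, were set beside the members. By limma, 0 of the 6 cholangiocyte markers given here were called, and 1 (KRT7) had an unadjusted p under 0.05. The paper reports KRT7 as induced by GRHL2 in HepG2 cells, by RNA-seq and RT-qPCR. Its RNA-seq test was DESeq2 on read counts, unlike limma on shrunken values, so a missed call here does not contradict that report. By gene set enrichment analysis, the paper also reports induction of cholangiocyte-enriched and epithelial gene sets in these cells. It adds that GRHL2 did not induce all commonly used cholangiocyte markers. The 6 markers here do not stand for those sets, which were not tested. The ductal transcription factor SOX9 had a log2 FC of 0.04 ± 0.08 (SD over 4 pairs; adjusted p in limma of 0.804). KRT7, KRT19, EPCAM, SPP1 and CFTR had log2 FC of 0.19, 0.15, 0.11, 0.06 and 0.0094, with adjusted p in limma of 0.097 to 0.652. CFTR had a mean value of -1.07 (0.8th percentile of all genes), so its log2 FC says little. KRT19 and SPP1 were both at the 99.7th percentile, and KRT7 was at the 40.5th.

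The genes whose 4 pair differences were nearest to those of JAG2, by root mean square distance over the 4 pairs, were MYH6 (distance of 0.113), PALM3 (0.116) and BCAS1 (0.126). MYH6 encodes a cardiac myosin heavy chain. It had a mean value of 3.06, close to that of JAG2, and a log2 FC of 0.48 ± 0.16 (SD over 4 pairs), while those of PALM3 and BCAS1 were 0.60 ± 0.10 and 0.55 ± 0.24. The distance covers the size of the increase as well as its course over the pairs. BCAS1 lost its call when replicate 1, 2 or 3 was left out, with log2 FC of 0.47 to 0.59.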

How the data were processed

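RNA-seq libraries of HepG2 cells (4 per plasmid) were grouped and numbered from their labels. According to the methods and the submitters' processing notes, the authors mapped reads to hg38 (HISAT2, 2.2.1 in the notes), counted them over exons without strand (HTSeq 0.9.1), dropped scarcely read genes, rlog-transformed the counts in DESeq2 (1.40.2 in the notes) and divided them by mean transcript length. Both versions marked as from the notes differ from those the authors give in the methods. The deposited values, named as FPKM, were on a log2 scale, since 3.71% were below 0 and the highest was 17.27. Rlog shrinks differences of weakly expressed genes. A stray character was removed from 1 value, and 0 columns belonged to other samples.

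The 4 pair means coincided in 17561 of 17561 genes (to within 1.5e-13), a step the methods do not describe. Deviations of same-numbered libraries are therefore opposite by construction, and the correlation check for pairing is void. The test was limma 3.58.1 (R 4.3.3, lmFit, eBayes with trend) with the replicate number as a block, fitted on all genes with Benjamini-Hochberg adjustment and a threshold of 0.05. Percentages called are over all genes tested. Depth was unknown, so no counting error was computed.

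Genes, gene lists and tests were chosen with earlier results of these data known. Named were the members, GRHL2, the called genes of each pathway list (or its largest difference), the 3 nearest genes of a called member and the cholangiocyte markers, of which 1 is not reported here. CREBBP, MAML1, MAML3, NUMBL, HES7 and the NOTCH2NL genes were added after their values were seen. Gene coordinates are from GENCODE release 44 (hg38). Length and GC content were available for 99.9% of genes. Alternatives were library weights, median centring, robust eBayes, no block, a floor of 5 on the mean value, spline correction (5 degrees of freedom) for GC content, length and level with the block, and leaving out each pair.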

Additional observations from a re-analysis of the deposited data

Results flagged for a closer look

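Among 27 named genes, 1 had a pair difference far from the other 3, where chance gives about 1 in 20. HES2 differed by 0.3761 (log2, pGRHL2 minus pcDNA3) in pair 3, compared with 0.19 to 0.21 in the other pairs. Leaving out replicate 3 gave a log2 FC of 0.20 (adjusted p in limma of 0.0852). GRHL2 had its largest difference in the same pair (10.26), and the part of this in the HES2 value was not tested.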

How the results depend on the processing

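The fit without the replicate block called 1821 genes higher and 1427 lower in place of 297 and 88, 3 higher (NOTCH1, NOTCH3, JAG2) and 3 lower (JAG1, RBPJ, HES1) members in place of 1 and 0, and 5 higher and 3 lower genes of the other pathway lists in place of 1 and 0. That fit counts degrees of freedom that the identical pair means do not hold. With library weights, 503 genes were higher and 221 lower, with 2 members higher (NOTCH1, JAG2), 1 lower (HES1) and 2 other pathway genes higher. With a mean value of at least 5, which leaves JAG2 and HES2 untested, 63 genes were higher and 81 lower, with 0 members and 0 other pathway genes higher. After spline correction for GC content, length and level, 123 genes were higher and 66 lower, and 0 other pathway genes were higher. When replicates were left out, 79 to 156 genes were higher and 8 to 68 lower, with 1 to 2 members higher, 0 to 1 lower and 0 other pathway genes higher or lower (0 to 0). The fewer pairs lower the power, and the cause of the other changes was not tested.

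JAG2 was called in 9 of the 9 alternatives that tested it, with log2 FC of 0.46 to 0.63 and adjusted p in limma of 8.73e-04 to 0.0434. These alternatives include the fit without the block, whose degrees of freedom are too many and which gave the lowest value. The next lowest was 0.00355, with library weights. HES1 and NOTCH1 were each called in 3 of 10, with log2 FC of -0.45 to -0.27 and 0.19 to 0.32, and NRARP in 0 of 10 (-0.42 to -0.16). Over the 10 members and these alternatives, 89 of 98 values kept direction and call, 9 gained a call and 0 changed sign. The fit without the block is among the calls of HES1 and NOTCH1, and it alone gave the gains of NOTCH3, JAG1 and RBPJ. Median centring and robust eBayes changed no call of a member. Unknown read depth limits most what can be said of NOTCH3 and JAG2, the members with the lowest values.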
